A study of Cenchrus purpureus with 8 samples.

Results

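The loci described here were each read in 7 of 8 napiergrass stem libraries and had no read at all in the remaining one, which was any entry other than BAGCE 5. A locus is a group of assembled transcripts that share an identifier, and its reads were summed over its transcripts and rounded. The 300 loci were chosen by these summed reads: 0 in exactly 1 of BAGCE 7, BAGCE 10, BAGCE 32, BAGCE 82, BAGCE 96, BAGCE 98 or Pioneiro, and 10 or more in every one of the other 7 libraries. Of the 66981 loci in the files, 486 met this rule, and the 300 with the largest minimum over the 7 libraries were kept. Silent is used below only for 0 reads counted in 1 library.

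The study sequenced young stem of 8 entries of a germplasm bank, 4 with high lignin (BAGCE 5, BAGCE 10, BAGCE 82 and Pioneiro) and 4 with low lignin (BAGCE 7, BAGCE 32, BAGCE 96 and BAGCE 98). The labels record neither a treatment by any agent nor a change of genotype; the entries are different germplasm, and lignin class came from earlier work of the same laboratory. Each entry had 1 library, so a locus silent in an entry was silent in 1 sample, and no test between entries was possible. The libraries held from 14925391 to 17997520 reads in loci.

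Napiergrass, also called elephant grass, is a perennial tropical forage grass that is largely outcrossing and polyploid. In plants, accessions of one species can differ in whether a gene is present, in whether it is transcribed, and in how far its sequence has diverged from a shared reference. Lignin is the phenolic polymer that stiffens the walls of stem cells, and its amount lowers the digestibility of forage. The files give the assembled loci no gene names, so nothing is said of what they encode, and absence of a gene, absence of its RNA and failure of its reads to be assigned cannot be told apart here.

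The silent loci were spread very unevenly over the 7 entries. BAGCE 10 had 112 of the 300, BAGCE 32 had 66, BAGCE 96 had 59 and BAGCE 98 had 33. BAGCE 82 had 17, Pioneiro had 9 and BAGCE 7 had 4. BAGCE 10, BAGCE 32 and BAGCE 96 together held 237 loci, or 79.0%. By lignin class, 138 of the loci were silent in a high lignin entry and 162 in a low lignin entry; BAGCE 5 was set aside, so 3 high lignin entries could be the silent one against 4 low lignin entries. The order of the entries was the same before the limit of 300 was applied, when BAGCE 10 had 190, BAGCE 32 had 98, BAGCE 96 had 90, BAGCE 98 had 55, BAGCE 82 had 21, Pioneiro had 20 and BAGCE 7 had 12. Under other settings given below the order changed, though BAGCE 10 stayed first wherever it was counted.

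**Figure D1:**
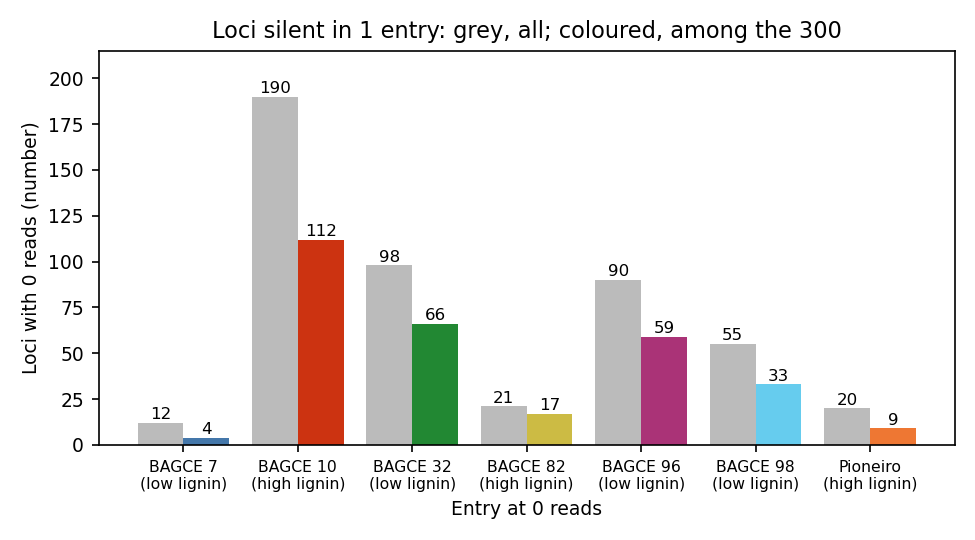
Number of loci with 0 reads in 1 entry and 10 reads or more in all the others, by silent entry. Grey bars count all 486 loci and coloured bars the 300 kept; BAGCE 10 stands highest with 190 and 112, and BAGCE 7 lowest with 12 and 4.

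Set against the loci that could have been silent, these are small shares. In BAGCE 10, 0.6% of the 31678 loci with at least 10 reads in the other 7 libraries had no read. The same share was 0.312% in BAGCE 32, 0.289% in BAGCE 96 and 0.176% in BAGCE 98. It was 0.0678% in BAGCE 82, 0.0647% in Pioneiro and 0.0386% in BAGCE 7. These percentages are the rule's own counts, so they describe the choice of loci and support nothing further. BAGCE 5, which the rule set aside, had 912 such loci (2.76%), which is 1.88 times all the other entries together.

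Depth is given here as reads in loci and as library sizes scaled by composition, the latter in M reads (megareads). BAGCE 5 had 17997520 reads in loci, BAGCE 10 had 17844473 and Pioneiro had 17355580. BAGCE 96 had 16970262, BAGCE 7 had 16923455, BAGCE 32 had 16350120, BAGCE 82 had 15405987 and BAGCE 98 had 14925391. After scaling, BAGCE 32 had 15, BAGCE 10 had 15.1 and BAGCE 96 had 15.6, the lowest values. BAGCE 7, with the fewest silent loci, had 15.9. BAGCE 82 had 16.1, BAGCE 98 had 17.6, BAGCE 5 had 17.9 and Pioneiro had 21.2. BAGCE 10 also detected the fewest loci apart from BAGCE 5, with 57602 loci holding a read against 59026 to 60185 in the 6 other entries and 53653 in BAGCE 5. The part of depth in the counts of silent loci was not tested.

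The counts depended on BAGCE 5, which had to have at least 10 reads at every locus. With BAGCE 5 left out, 836 loci met the rule instead of 486, all 486 among them, and the count for BAGCE 10 rose from 190 to 373. The loci added were those with fewer than 10 reads in BAGCE 5 as well. Without BAGCE 5 the count also rose to 138 for BAGCE 96, 39 for BAGCE 82, 45 for Pioneiro and 46 for BAGCE 7. Leaving out BAGCE 10 raised BAGCE 96 to 151 and BAGCE 7 to 24, and leaving out BAGCE 98 raised Pioneiro to 40 and BAGCE 7 to 20. BAGCE 82 rose to 32 without BAGCE 32 and to 38 without BAGCE 96. The order of the entries changed with these choices. BAGCE 32 had 124 without BAGCE 5 and 128 without BAGCE 10, in both cases fewer than BAGCE 96. Without BAGCE 5, BAGCE 82 rather than BAGCE 7 had the fewest.

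The edges of the set were not sharp. The smallest minimum kept was 14 reads, where 34 loci tied and the 15 with the lowest locus numbers were taken. The last locus kept was MSTRG.23864, silent in BAGCE 7, with 14 reads in BAGCE 5, 177 in BAGCE 10, 89 in BAGCE 32, 38 in BAGCE 82, 268 in BAGCE 96, 270 in BAGCE 98 and 21 in Pioneiro. The first left out was MSTRG.28043, silent in BAGCE 10, with 21 reads in BAGCE 5 and in BAGCE 7, 14 in BAGCE 32, 32 in BAGCE 82, 14 in BAGCE 96 and in BAGCE 98, and 25 in Pioneiro. Another 63 loci had 1 read rather than 0 in the low entry with at least 10 everywhere else, and 261 had 2 reads. A further 33 loci had 0 reads in 1 entry but 9 reads in 1 of the others.

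A read here may not be a separate molecule. Among counts from 1 to 20 at loci with a single transcript, 72.9% were even (71.4 to 74.1% by library), and a count of 2 was found 24681 times against 6181 times for a count of 1. The sources used here do not state how mates of a read pair were counted. A minimum of 10 reads may therefore stand for fewer than 10 fragments, and intervals or floors based on reads cover counting error only. The bounds below set a 0 to 3 reads; if both mates of a pair were counted, the same floor in fragments would be 6 reads and each bound would be 2 times smaller.

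Most of the loci were of modest level in the libraries that had them. The median of the minimum was 26.5 reads, and 35 of the 300 had at least 100 reads in every one of the 7 libraries. Per silent entry the median minimum was 32.5 reads for BAGCE 32, 31 for BAGCE 96, 26 for BAGCE 10 and for Pioneiro, 22 for BAGCE 98 and for BAGCE 7, and 18 for BAGCE 82. Among loci with at least 100 reads in the other 7 libraries, BAGCE 10 and BAGCE 32 each lacked 11, BAGCE 96 lacked 10, BAGCE 98, BAGCE 82 and Pioneiro each lacked 1, and BAGCE 7 lacked 0. At this level BAGCE 10 no longer stood above BAGCE 32 and BAGCE 96.

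To compare loci of different length, the authors' TPM (abundance scaled for effective length and for depth) was summed per locus and the median over the 7 libraries taken. Over the 300 loci its median was 5.0 TPM (range 0.738 to 97.7), against 7.8 TPM for the 30703 loci with at least 10 reads in all 8 libraries, and 95 of the 300 lay above that second value. By silent entry the median TPM was 11.2 for Pioneiro (9 loci), 6.57 for BAGCE 96, 5.56 for BAGCE 10, 5.0 for BAGCE 7 (4 loci), 4.45 for BAGCE 82, 4.27 for BAGCE 32 and 3.57 for BAGCE 98. The set was also lower when each locus was given by its most abundant transcript alone (2.58 against 5.04 TPM), and without the limit of 300 its median was 3.9 TPM. With BAGCE 5 left out and the loci chosen again, the median of 300 was 8.07 TPM against 7.24 TPM for the loci read in all 7 remaining libraries. The limit then drew on 836 loci and so took those with larger minima; over all 836 the median was 4.03 TPM.

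The range between the entries that had reads was described by the highest over the lowest level. The highest of the 7 CPM values (reads scaled to library size, not to length) was a median of 5.33 times the lowest, where the loci read in all 8 libraries had a median of 4.04 over 8. The lowest of the 7 is a value the rule chose on, so the range was also taken at like minima, over 7 libraries in both sets and before the limit. It was 5.59-fold against 5.24-fold at 14 to 19 reads, 5.61-fold against 4.32-fold at 20 to 49 and 4.52-fold against 3.16-fold at 50 or more. In 66 of the 300 this range was over 10-fold and in 10 it was under 2-fold. Together the 300 loci took 0.187 to 0.495% of the reads of a library.

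**Figure D2:**
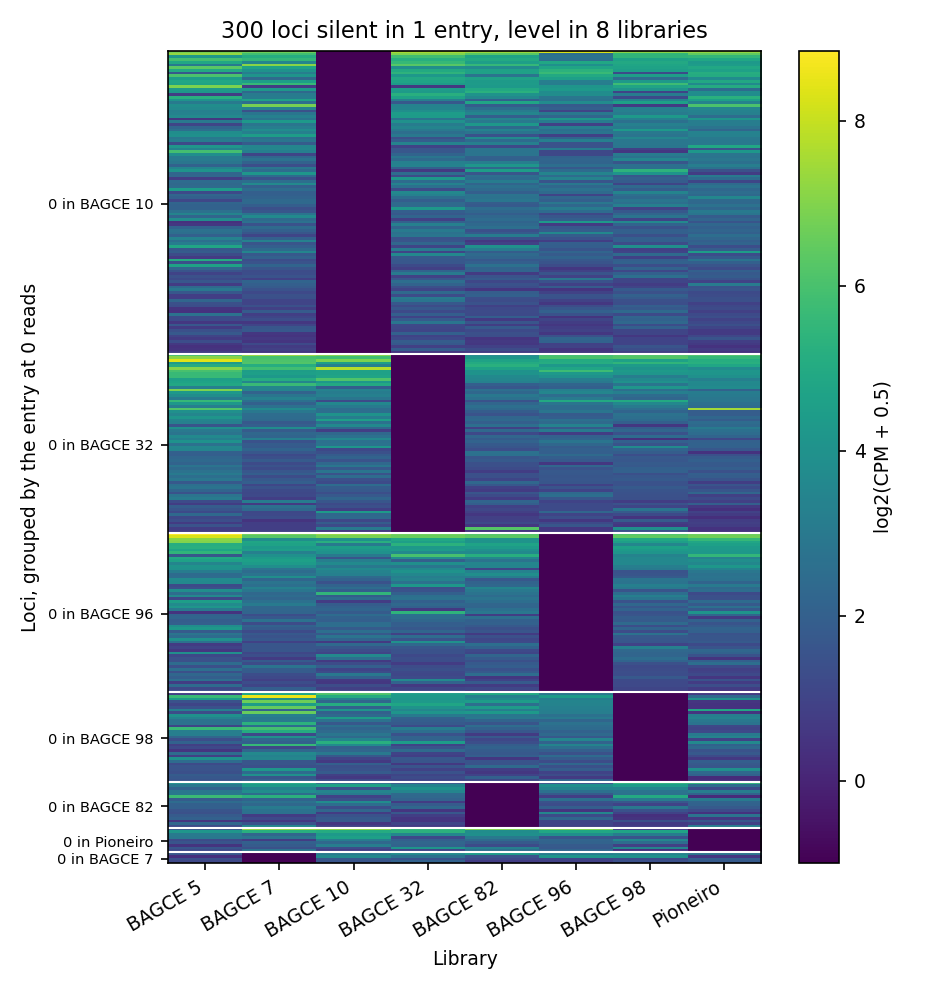
Level of each of the 300 loci (rows, grouped by silent entry and sorted by level) in the 8 libraries, as log2 of CPM plus 0.5. The dark block in each group is the entry at 0 reads, which the rule fixed; among loci silent in BAGCE 32 or BAGCE 96 the BAGCE 5 column is often the brightest, and among those silent in BAGCE 98 the BAGCE 7 column is.

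Which of the remaining libraries stood highest differed between the silent entries. Of the 66 loci silent in BAGCE 32, 32 (48.5%) were highest in BAGCE 5, against 22.7% of the loci read in all 8 libraries over the same 7 libraries, and 2 (3.03%) were lowest there, against 19.8%. The level in BAGCE 5 was over 2 times the median of the 6 remaining entries at 33 of these 66 loci , where 15% of the loci read in all 8 libraries were. The loci silent in BAGCE 96 leaned the same way, with 26 of 59 (44.1%) highest in BAGCE 5, against 22.0%. Loci silent in BAGCE 10 did not lean so: 24 of 112 (21.4%) were highest in BAGCE 5, against 23.4%.

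Loci silent in BAGCE 98 had another leading entry. Of the 33, 15 were highest in BAGCE 7, where 11.8% of the loci read in all 8 libraries were, and only 5 (15.2%) were highest in BAGCE 5, against 23.2%. Their median level was 9.69 CPM in BAGCE 7 and from 2.74 to 4.88 CPM in the 6 other libraries that had them. Among the 15, MSTRG.40258, MSTRG.40289 and MSTRG.4824, named after their values were seen, had much the same reads in each library. In BAGCE 7 they had 1494, 1629 and 1438 reads, and in BAGCE 82 they had 317, 341 and 335. Whether such loci are separate was not tested. BAGCE 5 was highest at 0 of the 9 loci silent in Pioneiro and 0 of the 4 silent in BAGCE 7, against 25.2% and 24.4%, but these loci are too few to read a difference from. These counts are over loci of single libraries, some of them neighbours or nearly alike in their reads, and were not tested.

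The silent loci more often had several assembled transcripts. The 300 had 786 transcripts, 2.62 per locus against 1.87 for loci read in all 8 libraries, and 90 of them had a single transcript, where 56.8% of the loci read in all 8 did. The silent entries differed in this: the mean was 3.07 transcripts for loci silent in BAGCE 10, 2.59 for BAGCE 96, 2.42 for BAGCE 32 and 1.73 for BAGCE 98, the last below the loci read in all 8 libraries. By share, though, 45.5% of the loci silent in BAGCE 98 had a single transcript, also fewer than the 56.8% above. Since summing over transcripts raises the minimum, loci were also compared at like minima, before the limit. With a minimum of 14 to 19 reads, 46.0% of the loci silent in 1 of the 7 entries had 2 or more transcripts, against 28.2% of those read in all 8. At 20 to 49 reads the shares were 76.7% and 35.8%, and at 50 or more they were 83.6% and 52.4%. Loci silent only in BAGCE 5 were nearer to the second group, with 36.5%, 42.0% and 53.5% in the same order. When the rule was applied to the most abundant transcript of each locus, with a minimum of 14, the share with 2 or more transcripts was 55.8% for loci silent in 1 of the 7 entries, 30.4% for loci silent in BAGCE 5 and 41.0% for loci read in all 8. The longest transcript had a median of 1504 bases in the 300 and 1636 bases in the loci read in all 8 libraries.

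For each silent entry, the locus with the largest minimum over the other 7 libraries is given in full. In BAGCE 10 it was MSTRG.20628. It had 2045 reads in BAGCE 5, 1560 in BAGCE 7, 2758 in BAGCE 32, 2606 in BAGCE 82, 4735 in BAGCE 96, 2399 in BAGCE 98 and 3116 in Pioneiro, and 0 in BAGCE 10. At a median of 97.7 TPM it was the highest of the 300, and it varied only from 98.2 to 304 CPM among the 7 libraries. A floor of 3 reads in BAGCE 10 puts its level there at least 741-fold lower than the median of the others.

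In BAGCE 32 the locus with the largest minimum was MSTRG.50193, with 5934 reads in BAGCE 5, 1090 in BAGCE 7, 1777 in BAGCE 10, 400 in BAGCE 82, 493 in BAGCE 96, 434 in BAGCE 98 and 738 in Pioneiro. BAGCE 5 stood far above the rest at 332 CPM, with BAGCE 10 next at 118 CPM and the others from 24.6 to 68.6 CPM. Its level in BAGCE 32 was at least 174-fold lower than the median of the others. Other loci had a higher median: MSTRG.10418, named after its values were seen, was at 66.9 TPM against 22.2 TPM for MSTRG.50193, with 181 reads in its lowest library, BAGCE 82, and 2572 in its highest, BAGCE 7.

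In BAGCE 96 it was MSTRG.17922, with 5608 reads in BAGCE 5, 1221 in BAGCE 7, 1685 in BAGCE 10, 1433 in BAGCE 32, 1318 in BAGCE 82, 1511 in BAGCE 98 and 2209 in Pioneiro. BAGCE 5 was again high, at 314 CPM, and the 6 other libraries lay between 76.8 and 112 CPM. The level in BAGCE 96 was at least 495-fold lower.

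In the 4 entries with fewer silent loci the largest minimum was smaller. MSTRG.494 was silent in Pioneiro, with 311 reads in BAGCE 5, 589 in BAGCE 7, 497 in BAGCE 10, 601 in BAGCE 32, 219 in BAGCE 82, 444 in BAGCE 96 and 464 in BAGCE 98, and 3 reads in Pioneiro would be 0.142 CPM against a median of 28.5 CPM elsewhere. MSTRG.54256 was silent in BAGCE 98, with 368 reads in BAGCE 5, 218 in BAGCE 7, 142 in BAGCE 10, 264 in BAGCE 32, 198 in BAGCE 82, 136 in BAGCE 96 and 320 in Pioneiro, and was at least 80.6-fold lower. Both were even among the 7 libraries that had them, with CPM from 13.6 to 40.0 for MSTRG.494 and from 8.74 to 20.6 for MSTRG.54256. Another locus silent in Pioneiro, MSTRG.10148, named after its values were seen, had a smaller minimum but a higher median, 115 CPM. It had 2411 reads in BAGCE 7, 2048 in BAGCE 10, 662 in BAGCE 32, 1973 in BAGCE 82 and 1795 in BAGCE 96, but 48 in BAGCE 5 and 19 in BAGCE 98. It was low but not silent in those 2 entries, at 2.69 CPM in BAGCE 5 and 1.08 CPM in BAGCE 98. Its level in Pioneiro was at least 814-fold lower than the median of the others, the largest bound of the 300.

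MSTRG.47538 was silent in BAGCE 82, with 127 reads in BAGCE 5, 321 in BAGCE 7, 376 in BAGCE 10, 152 in BAGCE 32, 218 in BAGCE 96, 378 in BAGCE 98 and 110 in Pioneiro, and was at least 75.0-fold lower. MSTRG.4054 was silent in BAGCE 7, with 48 reads in BAGCE 5, 119 in BAGCE 10, 181 in BAGCE 32, 309 in BAGCE 82, 131 in BAGCE 96, 177 in BAGCE 98 and 127 in Pioneiro, and was at least 44.6-fold lower. No library was set apart from the rest at MSTRG.47538, whereas MSTRG.4054 was lowest in BAGCE 5 at 2.69 CPM and highest in BAGCE 82 at 19.2 CPM. Over all loci of a silent entry, the median of this lower bound ran from 19.1-fold in BAGCE 32 to 29.0-fold in Pioneiro.

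The identifiers number the loci from 1 to 66981, and nearby numbers shared their silent entry. The files do not state that this order follows the chromosomes. Of the 12 pairs of the 300 loci with consecutive numbers, 11 (91.7%) were silent in the same entry. The share was 76.5% of 17 pairs at 2 to 5 numbers apart, 66.7% of 12 pairs at 6 to 10 and 68.8% of 32 pairs at 11 to 20. It fell to 28.3% of 46 pairs at 21 to 50 numbers, and stood at 23.9% of 43461 pairs more than 1000 numbers apart. Up to 10 numbers apart, 32 of 41 pairs (78.0%) shared their entry, and without the 5 loci of the longest run 23 of 32 did (71.9%). Pairs share loci and libraries, so no error is given for these shares.

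**Figure D3:**
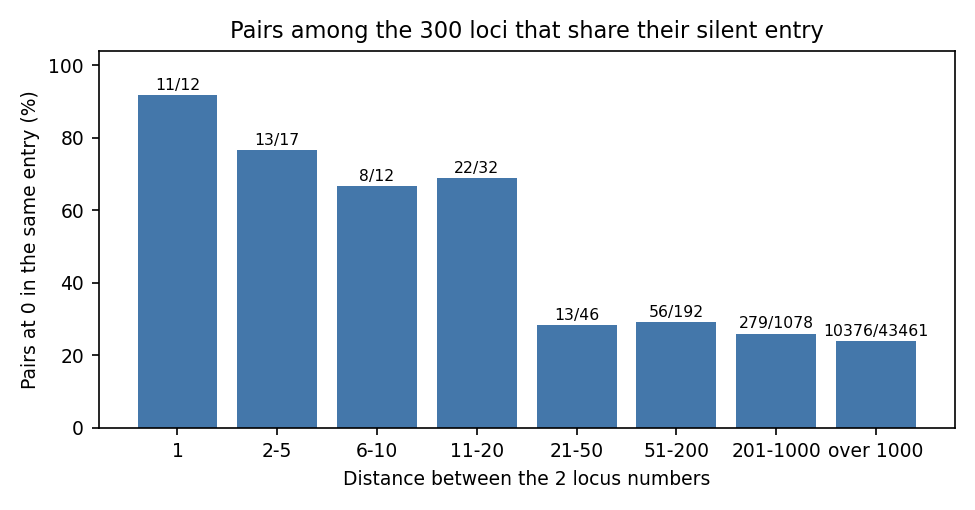
Share of pairs of the 300 loci that were silent in the same entry (%), by the distance between their locus numbers. The numbers over the bars give the pairs sharing an entry and all pairs; the share is 66.7% or more up to 20 numbers apart and 23.9 to 29.2% beyond.

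A run was taken as 2 or more of the 300 loci silent in the same entry, each at most 10 numbers from the next. There were 17 runs, holding 41 loci (13.7%), while 259 loci stood alone. Of the runs, 12 had 2 loci, 4 had 3 and 1 had 5. BAGCE 10 had 8 runs with 19 of its 112 loci, BAGCE 32 had 4 with 10 of 66, and BAGCE 96 had 3 with 8 of 59. BAGCE 82 had 1 run with 2 of its 17 loci, and BAGCE 98 had 1 with 2 of 33. Pioneiro, with 9 loci, and BAGCE 7, with 4, had no run. Entries with more loci have more room for runs, so these numbers alone do not compare how clustered the entries were. In 8 runs the loci had consecutive numbers, with none in between. Of the 9 runs with other loci in between, 8 had reads at some of these in the silent entry, and 1, the longest, had none.

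**Figure D4:**
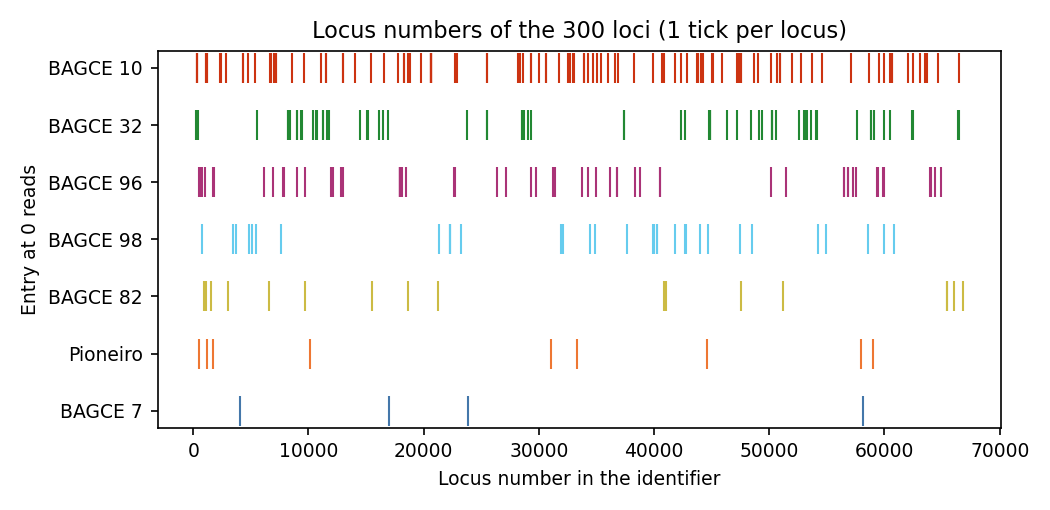
Locus numbers of the 300 loci, 1 tick per locus, in a row for each silent entry. The loci are spread over the whole range of numbers, and in windows of 1000 numbers the most found was 11.

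The longest run was in BAGCE 10, from 20628 to 20640. All 13 loci with these numbers were at 0 in BAGCE 10, and 8 of them had a median of at least 10 reads in the other libraries. MSTRG.20628 opens it, and MSTRG.20640 closes it with 556 reads in BAGCE 5, 252 in BAGCE 7, 471 in BAGCE 32, 392 in BAGCE 82, 625 in BAGCE 96, 392 in BAGCE 98 and 514 in Pioneiro. Both had over 100 reads in all 7 libraries. In between, MSTRG.20638 had 1446 reads in BAGCE 5, 410 in BAGCE 7, 210 in BAGCE 32, 207 in BAGCE 82, 408 in BAGCE 96, 442 in BAGCE 98 and 626 in Pioneiro, with BAGCE 5 well above the rest.

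The weaker loci of this run were more uneven. MSTRG.20632 had 15 reads in BAGCE 5, 94 in BAGCE 7, 55 in BAGCE 32, 64 in BAGCE 82, 296 in BAGCE 96, 205 in BAGCE 98 and 51 in Pioneiro. MSTRG.20637 had 180 reads in BAGCE 5, 175 in BAGCE 7, 41 in BAGCE 32, 105 in BAGCE 82, 125 in BAGCE 96, 24 in BAGCE 98 and 50 in Pioneiro. The order of the 7 libraries thus differed from locus to locus although BAGCE 10 was at 0 throughout. The reads came back at both ends: BAGCE 10 had 205 reads at MSTRG.20627 (72 to 269 in the others) and 76 at MSTRG.20642 (76 to 267). At MSTRG.20641, directly after the run, BAGCE 10 had 39 reads and the other libraries 0 to 5.

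BAGCE 96 had a pair of close triplets, from 17907 to 17909 and from 17922 to 17924, of which the first was singled out after its values were seen. In the first triplet MSTRG.17909 had 8237 reads in BAGCE 5, 1696 in BAGCE 7, 2314 in BAGCE 10, 1537 in BAGCE 32, 1169 in BAGCE 82, 1249 in BAGCE 98 and 2042 in Pioneiro. In the second, MSTRG.17923 had 2255 reads in BAGCE 5, 427 in BAGCE 7, 557 in BAGCE 10, 343 in BAGCE 32, 262 in BAGCE 82, 408 in BAGCE 98 and 597 in Pioneiro. MSTRG.17924 was weaker, with 248 reads in BAGCE 5 and 37 to 82 in the other 6. BAGCE 5 was the highest library at all 6 loci.

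The 6 loci of these triplets moved together across the 7 libraries. Pearson's r of log2 CPM was 0.88 to 0.97 within the first triplet, 0.92 to 0.96 within the second and 0.83 to 0.99 for the 9 pairs between them. These are descriptions over 7 shared libraries, with BAGCE 5 far from the others. Most of the 12 loci that lie between the triplets were read in BAGCE 96: 8 had at least 10 reads there, up to 5729, and 1 had 0. The locus at 0, MSTRG.17914, had only 0 to 2 reads in the other libraries.

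**Figure D5:**
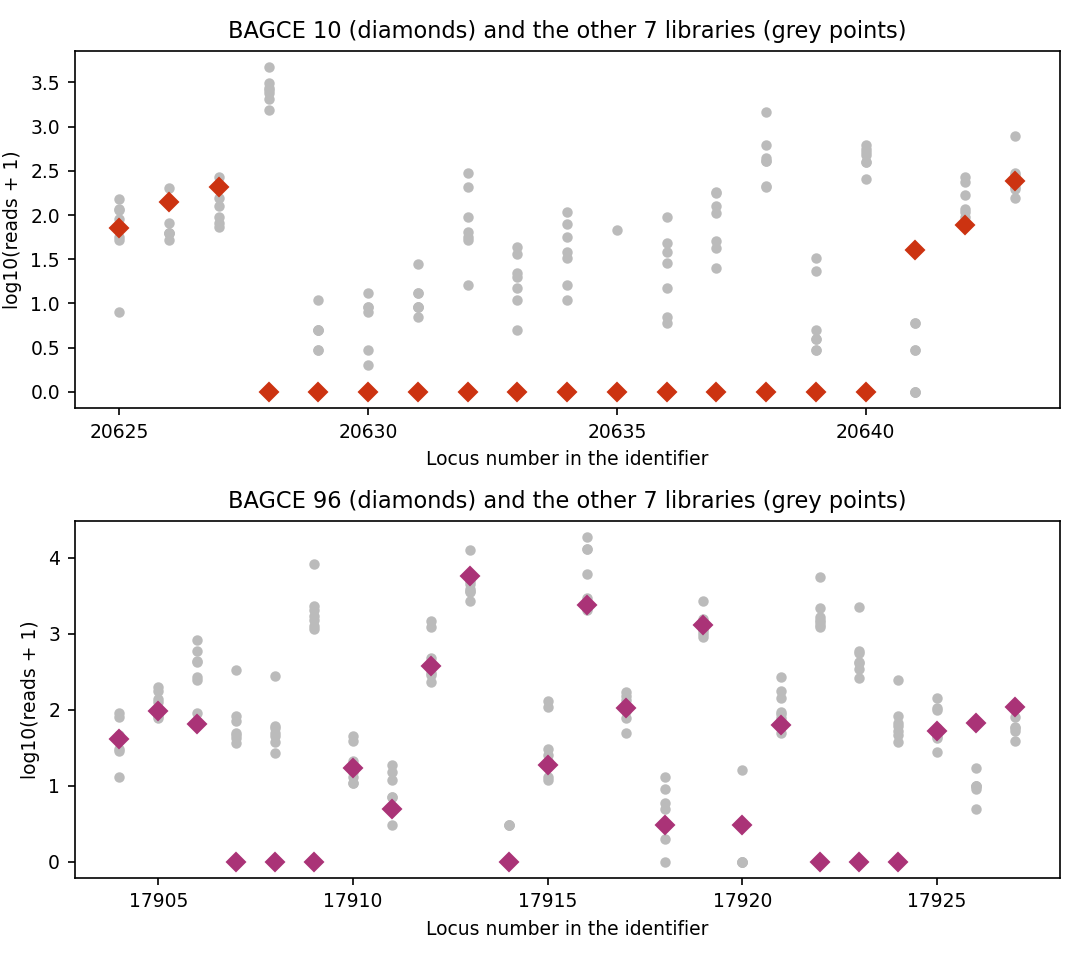
Reads, as log10 of reads plus 1, at consecutive locus numbers around the longest run of BAGCE 10 (top) and the triplets of BAGCE 96 (bottom). Diamonds are the silent entry and grey points the other 7 libraries; BAGCE 10 is at 0 at 13 consecutive loci, while BAGCE 96 falls to 0 at both triplets and has up to 5729 reads between them.

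The longest runs of the remaining entries were looser. In BAGCE 32, MSTRG.50193, MSTRG.50203 and MSTRG.50206 lay within 14 numbers, of which 7 were at 0 in BAGCE 32 and the other 7 had up to 93 reads there. MSTRG.50203 had 158 reads in BAGCE 5, 94 in BAGCE 7, 119 in BAGCE 10, 88 in BAGCE 82, 79 in BAGCE 96, 138 in BAGCE 98 and 109 in Pioneiro, an even level that contrasts with the peak of MSTRG.50193 in BAGCE 5. MSTRG.50206 lay between these patterns, with 246 reads in BAGCE 5 and 82 to 165 in the others. In BAGCE 98, MSTRG.22267 (50 to 153 reads elsewhere) and MSTRG.22269 (57 to 330) enclosed a locus with 25 reads in BAGCE 98. In BAGCE 82, MSTRG.65444 (32 to 166) and MSTRG.65452 (91 to 223) enclosed loci with up to 676 reads in BAGCE 82.

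How alike the loci of a run were across libraries differed from run to run. The median r of log2 CPM over the 7 libraries was 0.54 for the 34 pairs within a run, with a range of -0.72 to 0.97, and 0.09 for 10376 pairs silent in the same entry more than 1000 numbers apart. The 10 pairs of the longest run had a median of 0.05 (range -0.44 to 0.79), no higher than the distant pairs. Without that run and the 6 pairs of the BAGCE 96 triplets, the other 18 pairs had a median of 0.54 (range -0.72 to 0.96). Counting did not necessarily keep neighbouring loci apart, because whether it used strand is not given in the sources used here.

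Stretches of 0 were also counted without the rule's demand that every other library be read. Among loci with a median of at least 10 reads in the other 7 libraries, taken in number order, BAGCE 10 had 1646 at 0 (3.58%) and 20 stretches of 3 or more. BAGCE 96 had 940 at 0 with 16 such stretches, BAGCE 32 had 860 with 8, BAGCE 82 had 436 with 5, BAGCE 98 had 691 with 3, Pioneiro had 554 with 1 and BAGCE 7 had 600 with 0. Of the loci at 0, the share lying in stretches of 2 or more was 20.4% in BAGCE 10, 19.6% in BAGCE 96 and 15.1% in BAGCE 82. It was 14.2% in BAGCE 32, 9.33% in BAGCE 7, 8.68% in BAGCE 98 and 8.48% in Pioneiro. The longest stretch was 8 loci in BAGCE 10, inside the run at 20628 to 20640. In BAGCE 32 the longest was 6 loci, from 10414 to 10419, where MSTRG.10418 lies. BAGCE 82 and BAGCE 96 shared their longest stretch, 6 loci from 26114 to 26120, which the rule for the 300 could not take because 2 entries were at 0. BAGCE 5 had 3734 at 0 and 83 stretches of 3 or more, the longest of 11 loci.

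Most loci next to one of the 300 were read in the silent entry. Of 230 loci directly next to one of the 300 and with at least 10 reads in the other 7 libraries, 26 (11.3%) were at 0 in that entry too, where the share over a whole entry was at most 0.6%. A locus at 0 in this way meets the rule itself, so these 26 are among the 486 and include loci of the runs above. The share thus restates the runs and is no separate support. The share at 0 was 2.47% of 930 loci at 2 to 5 numbers and 0.571% of 1225 at 6 to 10. For the 204 that were not at 0, a choice that sets aside the lowest, the median log2 ratio of CPM in the silent entry to the median of the others was -0.03, and for loci over 1000 numbers away it was -0.02. A minority were low: 14 of the 204 (6.86%) had a log2 ratio below -2, against 1.54% of 907 loci at 2 to 5 numbers, 2.05% of 1218 at 6 to 10 and 1.55% of 111566 at over 1000. The entries weigh differently in the near and the distant loci. At over 1000 numbers the share below -2 ran from 0.517% for BAGCE 82 to 3.96% for BAGCE 98. Next to loci silent in BAGCE 98 the median was -0.60, over 23 loci, of which 3 (13.0%) were below -2, against that 3.96%.

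The lignin comparison was made over all 46894 loci that passed a filter on low counts, with edgeR's quasi-likelihood test. It called 0 loci at an adjusted p under 0.05 (0% of loci), and 1157 (2.47%) had an unadjusted p under 0.05. That second count was 656 without BAGCE 5, 2022 without BAGCE 7, 1757 without BAGCE 10, 472 without BAGCE 32 and 2953 without BAGCE 82. All 300 loci were tested; 0 were called, 2 (0.667%) had an unadjusted p under 0.05, and the smallest adjusted p among them was 0.9997. DESeq2 called 23 loci (0.0498% of those it tested), none of the 300, of which 5 had an unadjusted p under 0.05. Because the rule put a 0 into 1 library, it pushed the fold change toward the other group: the median log2 fold change of high over low lignin was -0.35 for the 138 loci silent in a high lignin entry and 0.55 for the 162 silent in a low lignin entry, against -0.01 over all loci tested. Nothing is read from these directions.

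The smallest p among the 300 on the lower side was that of MSTRG.40878, silent in BAGCE 82. It had 68 reads in BAGCE 5, 34 in BAGCE 10, 0 in BAGCE 82 and 39 in Pioneiro, at most 3.81 CPM, among the high lignin entries. Among the low lignin entries it had 151 reads in BAGCE 7, 230 in BAGCE 32, 156 in BAGCE 96 and 184 in BAGCE 98, from 9.5 to 15.3 CPM. The groups did not overlap, and all 4 low lignin entries were above all 4 high lignin entries. The 0 in BAGCE 82 was required by the rule, so the gap and the p below rest partly on the choice of loci. Loci without overlap were not counted over the whole series, so nothing is read from the gap. The log2 fold change was -2.51 (SE 0.99, n = 4 per group), with an edgeR p of 0.0319 and an adjusted p of 0.9997, so the difference did not pass the test.

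On the higher side it was MSTRG.11258, silent in BAGCE 32. It had 71.0 CPM in BAGCE 5, 5.3 in BAGCE 10, 4.67 in BAGCE 82 and 177 in Pioneiro, against 12.7 in BAGCE 7, 0 in BAGCE 32, 5.07 in BAGCE 96 and 5.62 in BAGCE 98. The groups overlapped, and the high values were those of Pioneiro and BAGCE 5 alone. The 0 in BAGCE 32 was again required by the rule. The log2 fold change was 3.46 (SE 1.55, n = 4 per group), with an edgeR p of 0.0535 and an adjusted p of 0.9997.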

How the data were processed

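Per the labels' protocols, total RNA of young stem was made into stranded poly(A) libraries and sequenced on an Illumina instrument. Per the submitters' processing notes, reads were handled with Salmon 0.7.2, StringTie 2.0.4, STAR 2.5.2b and FastQC 0.11.8 (no order or role is stated). Not given in the sources used here were the genome build, the tools' settings and how mates were counted. Per the file headers, the authors deposited for each transcript an estimated count of reads, a TPM value (normalized for length and depth by the authors) and its lengths in bases. Within 0.001 reads, 99.974% of the estimated counts were whole; they were summed per locus and rounded to whole numbers.

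The members and lists were chosen with earlier results of these data known. CPM used library sizes scaled by TMM, and log2 ratios a pseudocount of 0.5 CPM. Fold bounds set 0 to 3 reads. Tied minima were taken in order of locus number. The lignin test was edgeR 4.0.16 (R 4.3.3; glmQLFit and glmQLFTest, robust, two-sided, filterByExpr, Benjamini-Hochberg over all loci, threshold 0.05), with DESeq2 1.42.0 and limma 3.58.1 (voom) as alternatives. Only edgeR was also run on simulated data, whose means came from the real counts. Tables were made with Python 3.11.15, pandas 2.3.3 and scipy 1.17.1.

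Groups came from the labels, 4 entries each. Nothing says that entries were sampled more than once, so p-values measure the spread between entries. Pairs of libraries within a group differed by a chi-square of 77.7 to 173 per degree of freedom, so all 8 were kept. Most loci were named by rule: per silent entry the one with the largest minimum and the longest run, the last kept and first left out by the limit, and the smallest p in each direction of the lignin test. Outside this rule, MSTRG.10418, MSTRG.10148, MSTRG.17909, MSTRG.40258, MSTRG.40289 and MSTRG.4824 were named after their values were seen. Loci just outside or between runs were named for their place. No locus carries a gene name, so no pathway or cell type list could be matched, and no sequence was used.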

Additional observations from a re-analysis of the deposited data

Results flagged for a closer look

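The 4 entries of each lignin group were searched for a value far from the other 3, in the CPM of the 22 loci named by rule (44 groups) and in 3 measures of each entry (6 groups). Of the 50 groups, 5 had one. Chance flags about 1 in 20 groups, but that rate cannot be applied here, because 22 groups hold a 0 that the rule put there. In high lignin entries, BAGCE 5 stood high at MSTRG.17922 with 314 CPM, the next entry having 112 CPM, and BAGCE 10 stood high at MSTRG.23864 with 11.7 CPM against 2.36 CPM. In low lignin entries, BAGCE 32 stood high at MSTRG.40878 with 15.3 CPM against 10.4 CPM, and low at MSTRG.20638 with 14 CPM against 25.1 CPM. BAGCE 96 stood low at MSTRG.17923 with 0 CPM against 22.8 CPM, a 0 that the rule required.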

How the results depend on the processing

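The count of 486 loci became 989 with a minimum of 5 reads, 219 with a minimum of 20 reads, and 810 when up to 2 reads counted as silent; leaving out 1 library at a time gave 422 to 836, the highest without BAGCE 5. The 190 loci of BAGCE 10 became 335, 86 and 301 under the same 3 settings and 197 to 373 with 1 library left out. When up to 2 reads counted as silent, BAGCE 98 had 128 loci, more than BAGCE 96 with 120. Up to 1 read as silent (549 loci), a minimum of 0.5 CPM (547) and the most abundant transcript only (375) stayed within 1.5 times of 486. The 41 loci in runs became 75 without the limit of 300 and 20 with a largest step of 1, and were 34 to 54 with 1 library left out. The 78.0% of near pairs that shared an entry became 91.7% for pairs up to 1 apart and 67.4 to 81.6% with 1 library left out; leaving out the longest run was chosen after seeing the data. The median level of 5.0 TPM ran from 4.93 to 8.07 with 1 library left out; it was 2.58 with the most abundant transcript only, 3.9 without the limit, and 4.03 without BAGCE 5 and the limit (chosen after seeing the data). As CPM per kb it was 3.14, against 5.25 for loci read in all 8 libraries. The near neighbours' median log2 ratio lay between -0.10 and -0.00 under all settings tried. The 0 lignin calls of edgeR stayed 0 with RLE scaling, without the filter, with limma-voom and with each library left out, but DESeq2 called 23; the cause was not tested. No paired analysis was possible because the labels give no pairing of entries and the replicate numbers only name them. With 1 library per entry and counts that are often even, a 0 next to 10 to 20 reads is limited by depth.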
